A study of Drosophila melanogaster with 21 samples.

Results

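The 10 genes described here encode the enzymes of glycolysis and lactate dehydrogenase: Hex-A, Pgi, Pfk, Ald1, Tpi, Gapdh1, Pgk, Eno, PyK and Ldh. They were chosen by name, as rows of the authors' deposited tables whose FlyBase identifiers carry these symbols, and all 10 were found among 17559 genes. Polyadenylated RNA from whole heads of adult Drosophila melanogaster, 3 to 5 days old, had been sequenced. Control flies were w1118, a stock carrying a mutation of the eye-colour gene white, and the other flies carried a knockout of Crtc, the fly coactivator of the transcription factor CREB. Flies of each genotype were either fed or fasted for 16 hours, with 3 libraries from fed and 2 from fasted heads of either genotype. The labels give neither the sex of the flies nor the genetic background of the knockout. Nor do they tell whether the replicates are separate collections of flies, and the p-values cover only variation among these libraries, possibly technical.

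Glycolysis splits glucose into pyruvate in the cytosol and yields ATP and NADH without oxygen. Its first enzymes spend ATP to phosphorylate and cleave the sugar, and its later enzymes recover ATP and reduce NAD+. Lactate dehydrogenase turns pyruvate into lactate and so regenerates NAD+. In fly heads the pathway is known to serve muscle, the retina and glia, which pass breakdown products of sugar to neurons.

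The authors deposited 4 comparisons with no value per library: fasted against fed in control heads, fasted against fed in knockout heads, and knockout against control in fasted and in fed heads. The mean of each group was recovered from the authors' deposited base means and log2 folds, and is a normalized count with a standard error taken from the fitted spread (n = 3 fed, n = 2 fasted). The group means of all genes summed to 3418786 normalized counts in control fed heads and to 3569123 in knockout fasted heads, the lowest and highest of the 4 groups. Crtc itself averaged 340 normalized counts in control heads and 0.36 in knockout heads, per the base means of the authors' deposited tables. In the labels' numbering, the third fed library of both genotypes belongs to a later set of samples without fasted heads, and no fit that accounts for the set was possible. In RNA of whole heads, fewer cells of a type and less RNA per cell cannot be told apart.

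Transcripts of 9 of the 10 enzymes were abundant and that of Ldh was scarce. Per kilobase of exon, PyK, Gapdh1 and Ald1 led in every group, and Ldh was the lowest in every group. In control fed heads PyK ranked 182 and Pfk 1001 among 17253 genes with an annotated length, while Ldh ranked 5568, with 67.7% of genes below it. The 10 genes together made up 0.572% of all normalized counts in control fed heads, 0.543% in control fasted heads, 0.534% in knockout fed heads and 0.618% in knockout fasted heads.

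Hexokinase A (Hex-A, FBgn0001186, X:9585675-9589813 of BDGP6.54, plus strand) phosphorylates glucose and commits it to the cell. Its group means were 1603 ± 144 normalized counts in control fed heads, 1953 ± 214 in control fasted heads, 1557 ± 150 in knockout fed heads and 2136 ± 252 in knockout fasted heads. The fasted mean was the higher one in both genotypes.

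Glucose-6-phosphate isomerase (Pgi, FBgn0003074, 2R:8910900-8914069, minus strand) makes fructose-6-phosphate. In the same order of groups its means were 1203 ± 91.4, 1329 ± 123, 937 ± 72.4 and 1093 ± 103 normalized counts. Both knockout means lay below both control means.

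Phosphofructokinase (Pfk, FBgn0003071, 2R:10109740-10117457, plus strand) catalyses the main regulated step of the pathway. Its means of 1028 ± 71.1, 895 ± 76.1, 1134 ± 85.9 and 1068 ± 99.3 normalized counts made it the lowest of the glycolytic enzymes per kilobase, with 235 in control fed heads, above Ldh alone.

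Aldolase 1 (Ald1, FBgn0000064, 3R:26254069-26261591, minus strand) cleaves fructose-1,6-bisphosphate. It had the highest counts of the 10, at 5121 ± 420, 4826 ± 484, 4582 ± 400 and 5097 ± 545 normalized counts. Triose phosphate isomerase (Tpi, FBgn0086355, 3R:30132981-30134599, minus strand) interconverts the products of that cleavage. Its means were 975 ± 119, 1014 ± 152, 1036 ± 132 and 1453 ± 225 normalized counts, so that knockout fasted heads stood highest, and its fitted spread between libraries of 18.9% to 22.1% was the widest of the 10 after Ldh.

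Glyceraldehyde-3-phosphate dehydrogenase 1 (Gapdh1, FBgn0001091, 2R:7791901-7793380, minus strand) makes the NADH of the pathway. Its means were 2101 ± 160 normalized counts in control fed heads, 2056 ± 191 in control fasted heads, 2308 ± 165 in knockout fed heads and 3199 ± 280 in knockout fasted heads. Knockout fasted heads stood above the other groups, which lay close together.

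Phosphoglycerate kinase (Pgk, FBgn0250906, 2L:2746880-2753068, minus strand) makes the first ATP of the pathway, and its means were 906 ± 80.9, 893 ± 97.7, 924 ± 87.0 and 1050 ± 121 normalized counts. Enolase (Eno, FBgn0000579, 2L:1724768-1729636, minus strand) makes phosphoenolpyruvate, and its means were 3334 ± 218, 2976 ± 239, 3318 ± 254 and 3695 ± 346 normalized counts. Pyruvate kinase (PyK, FBgn0267385, 3R:22367536-22372746, plus strand) makes pyruvate and ATP, and its means were 3214 ± 254, 2802 ± 272, 2919 ± 244 and 3163 ± 324 normalized counts. In all 3 the control fasted mean was the lowest of the 4.

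Lactate dehydrogenase (Ldh, FBgn0001258, 3L:6259105-6262694, minus strand) had means of 69.6 ± 9.88 normalized counts in control fed heads, 168 ± 27.2 in control fasted heads, 37.0 ± 6.77 in knockout fed heads and 95.6 ± 19.6 in knockout fasted heads. Fasted heads stood above fed heads in both genotypes, and knockout heads below control heads in both feeding states. Per kilobase, Ldh stood at 0.0250 of the level of PyK, the enzyme that makes its substrate, in control fed heads, 0.0694 in control fasted heads, 0.0146 in knockout fed heads and 0.0349 in knockout fasted heads.

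**Figure D1:**
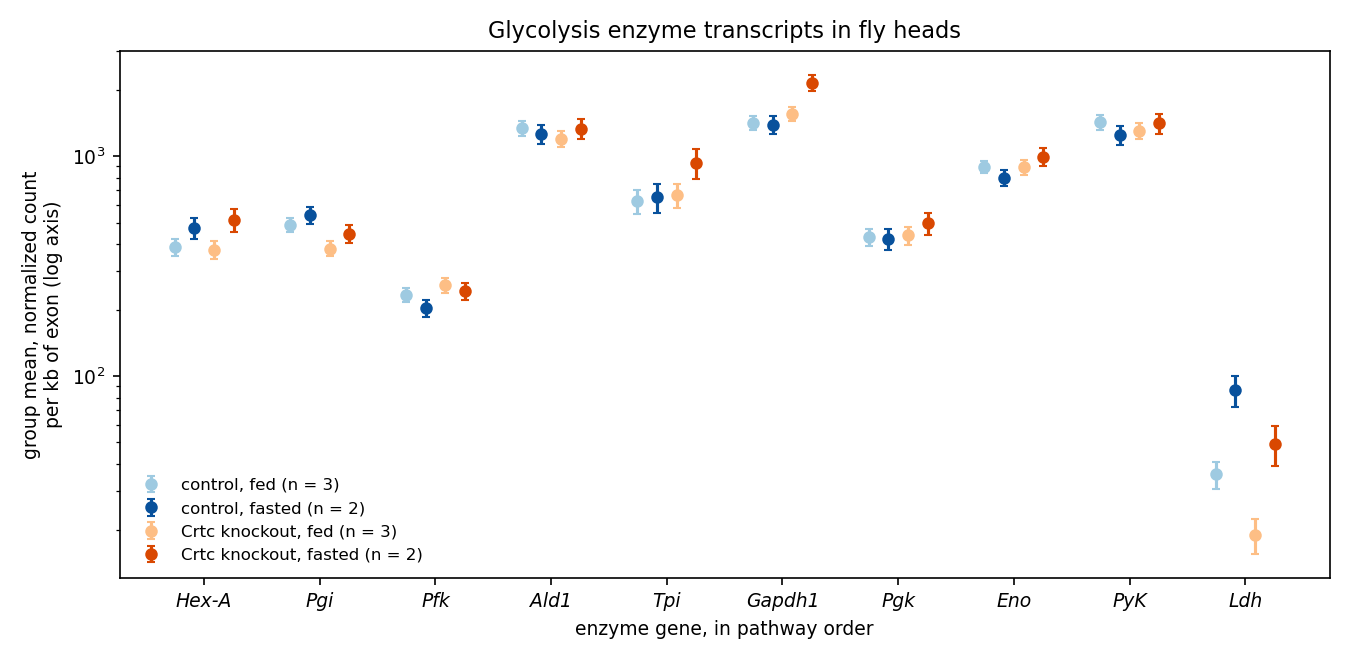
Group means of the 10 enzyme genes in pathway order, as normalized counts per kilobase of exon on a log axis, with bars of 1 fitted standard error (n = 3 fed, n = 2 fasted). Ldh lies far below the others in every group, and Gapdh1 stands highest in knockout fasted heads, at 2162 per kilobase.

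The order of the levels was only partly resolved. In control fed heads PyK exceeded Gapdh1 by 13.7 normalized counts per kilobase, with a combined standard error of 157, and Gapdh1 exceeded Ald1 by 75.1, with a combined standard error of 154. Those 3 could therefore not be ordered. The step from Ald1 down to Eno, 448 per kilobase with a combined standard error of 125, was larger than its error, as was the step from Hex-A to Pfk, 153 with a standard error of 38.4. In knockout fasted heads Gapdh1 exceeded PyK, the next in order, by 751 per kilobase, with a combined standard error of 238.

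The annotated spans of other genes, introns included, overlap those of some of these. On the opposite strand, Pgk shares 624 bases with Bacc, which averaged 3233 normalized counts over the control libraries in the authors' deposited tables, while Eno shares 905 bases with Rrp40 and Ald1 shares 614 with asRNA:CR44321. The sources used here do not state whether reads were counted by strand, and overlap of exons was not measured. Some reads of Pgk and Bacc may therefore not be told apart. Gapdh1 and Gapdh2 are close paralogs whose reads the counting could have split, and values for either are uncertain to that extent.

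The first comparison asked how fasting changed these transcripts in control heads. Ldh rose, and no other enzyme of the 10 was called. Its log2 fold was 0.99 ± 0.24 in the authors' deposited table (DESeq2 adjusted p = 0.00152). Of the 10 enzymes 1 was called, where 3.84% of 9361 genes were called in either direction. Without the shrinkage of the authors' DESeq2 fit, the Ldh fold was 2.41 (95% interval 1.59 to 3.65). The other 9 enzymes had folds between 0.869 and 1.22, none called, with a smallest adjusted p of 0.986 in the authors' deposited table. Their 95% intervals together spanned 0.681 to 1.61, so moderate changes of single enzymes could not be told from none.

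The second comparison asked the same in Crtc knockout heads. Ldh again rose, by a log2 fold of 0.98 ± 0.28 in the authors' deposited table (DESeq2 adjusted p = 0.0206), or 2.58-fold without shrinkage (95% interval 1.51 to 4.42). It was the only 1 of 10 called, where 3.26% of 10037 genes were called. Gapdh1 had a log2 fold of 0.44 ± 0.15 in the authors' deposited table and missed the threshold (DESeq2 adjusted p = 0.0987). Hex-A had 0.41 ± 0.20 (adjusted p = 0.481) and Tpi 0.40 ± 0.24 (adjusted p = 0.765) in the same authors' deposited table. Of the 10 log2 folds 9 lay above 0, Pfk being the exception at -0.078 ± 0.16, and their median was 0.19 where that of all tested genes was -0.024.

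Both genotypes were then combined, since the 2 fasting tables share no library. The weighted mean of the log2 folds of Ldh was 0.98 ± 0.18 (normal test on the authors' deposited DESeq2 values, Benjamini-Hochberg adjusted p = 3.29e-06). Without shrinkage, Ldh rose 2.47-fold with fasting (95% interval 1.78 to 3.44). It was the only enzyme of the 10 called, against 7.1% of 8474 genes. With a t distribution of 6 degrees of freedom in place of the normal, the adjusted p for Ldh was 0.0821. Hex-A came next, with 0.32 ± 0.13 (adjusted p = 0.153), and was not called.

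**Figure D2:**
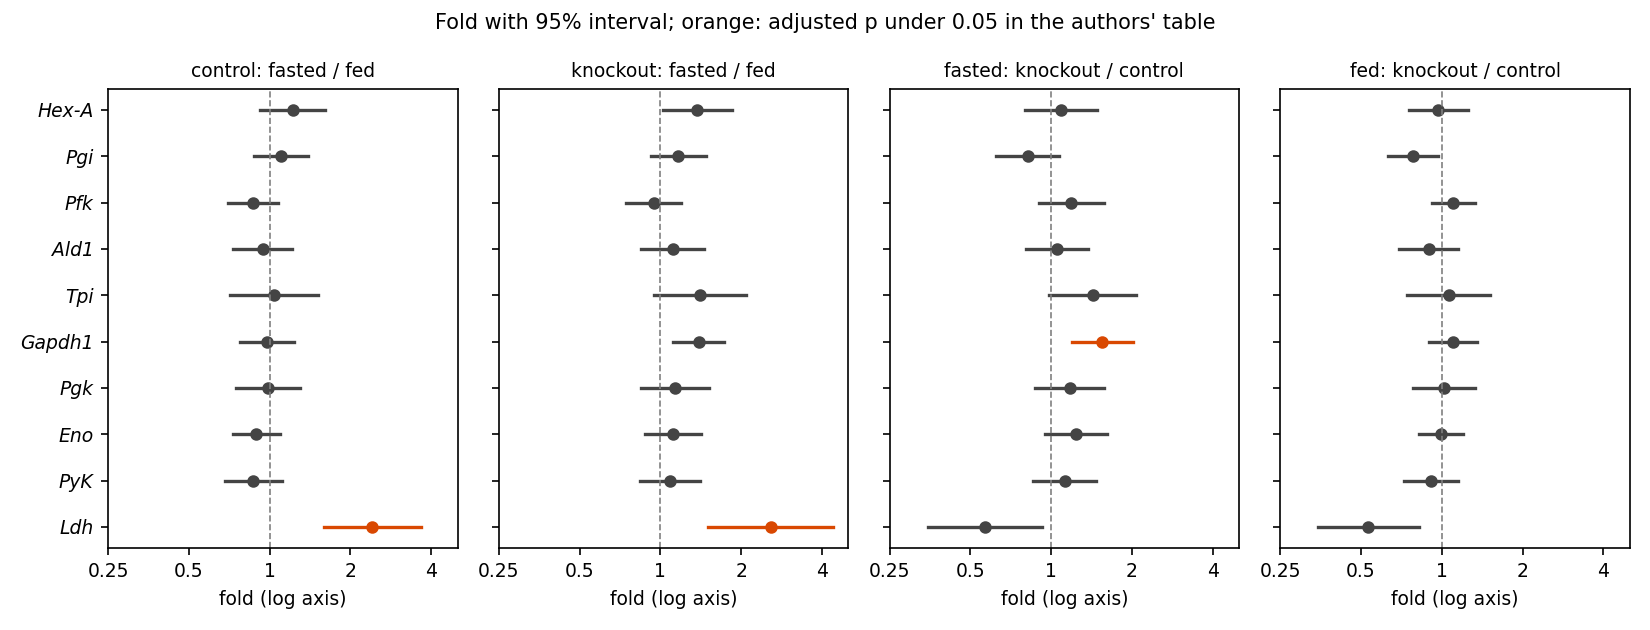
Folds of the 10 enzymes without shrinkage in the 4 comparisons, on a log axis, with 95% intervals. Orange marks an adjusted p under 0.05 in the authors' table: Ldh in both fasting comparisons, at 2.41 and 2.58, and Gapdh1 in fasted knockout against control, at 1.55.

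The third comparison set knockout against control in fasted heads. Gapdh1 was higher in the knockout, by a log2 fold of 0.59 ± 0.18 in the authors' deposited table (DESeq2 adjusted p = 0.0237), or 1.55-fold without shrinkage (95% interval 1.19 to 2.02). It was the only 1 of the 10 called, where 5.39% of 9917 genes were called. Ldh had a log2 fold of -0.66 ± 0.29 in the authors' deposited table (adjusted p = 0.247), Tpi 0.45 ± 0.24 (adjusted p = 0.472) and Pgi -0.27 ± 0.18 (adjusted p = 0.770), and none of these passed. For the 9 enzymes besides Ldh the 95% intervals together reached from 0.625 to 2.07.

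The fourth comparison set knockout against control in fed heads, and DESeq2 called 0 of the 10, where it called 4.75% of 10285 genes. At an unadjusted p under 0.05 there were 2. These were Ldh, with a log2 fold of -0.70 ± 0.24 (adjusted p = 0.0781), and Pgi, with -0.34 ± 0.15 (adjusted p = 0.252), in the authors' deposited table. Ldh passed when the Wald scores were divided by their central spread of 0.907, with an adjusted p of 0.0296. Such a division enlarges the scores of all genes, and the share of them then called is not given here. Gapdh1, the enzyme called in fasted heads, had 0.13 ± 0.14 here (adjusted p = 1.00).

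Over both feeding states, Ldh was lower in the knockout. Its weighted mean log2 fold was -0.68 ± 0.19 (normal test on the authors' deposited DESeq2 values, Benjamini-Hochberg adjusted p = 0.00394), a ratio of 0.546 without shrinkage (95% interval 0.395 to 0.756). Ldh alone was called among the 10, where 10.4% of 8556 genes were called. Gapdh1 had 0.30 ± 0.11 (adjusted p = 0.0605) and Pgi -0.31 ± 0.11 (adjusted p = 0.0641), both just outside the threshold, and Gapdh1 passed it with equal weights. With a t distribution of 6 degrees of freedom the adjusted p for Ldh was 0.164. For Pgi the ratio of knockout to control without shrinkage was 0.794 (95% interval 0.672 to 0.939) before adjustment for the number of genes.

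Whether the knockout changed the response to fasting was tested by the difference of the 2 fasting folds. The test called 0 of the 10, where it called 0.802% of 8474 genes, and 1 of the 10 had an unadjusted p under 0.05. That was Gapdh1, with 0.47 ± 0.22 on the log2 scale, knockout minus control (adjusted p = 0.993). It was called only when the scores were divided by their central spread. That division rescales the scores of all genes, and the share of them then called is not given here. For Ldh the difference was -0.0043 ± 0.37. Without shrinkage, the ratio of its 2 fasting folds had a 95% interval of 0.543 to 2.11, which is wide. Of the 10 differences 9 lay above 0 with a median of 0.20, against a median of -0.0085 and 48.2% above 0 for all tested genes. For the 712 genes averaging at least 1000 normalized counts, the range of most of these enzymes, the median was -0.024 and 43.4% lay above 0. The 10 genes were measured in the same libraries and their values are not independent of each other.

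**Figure D3:**
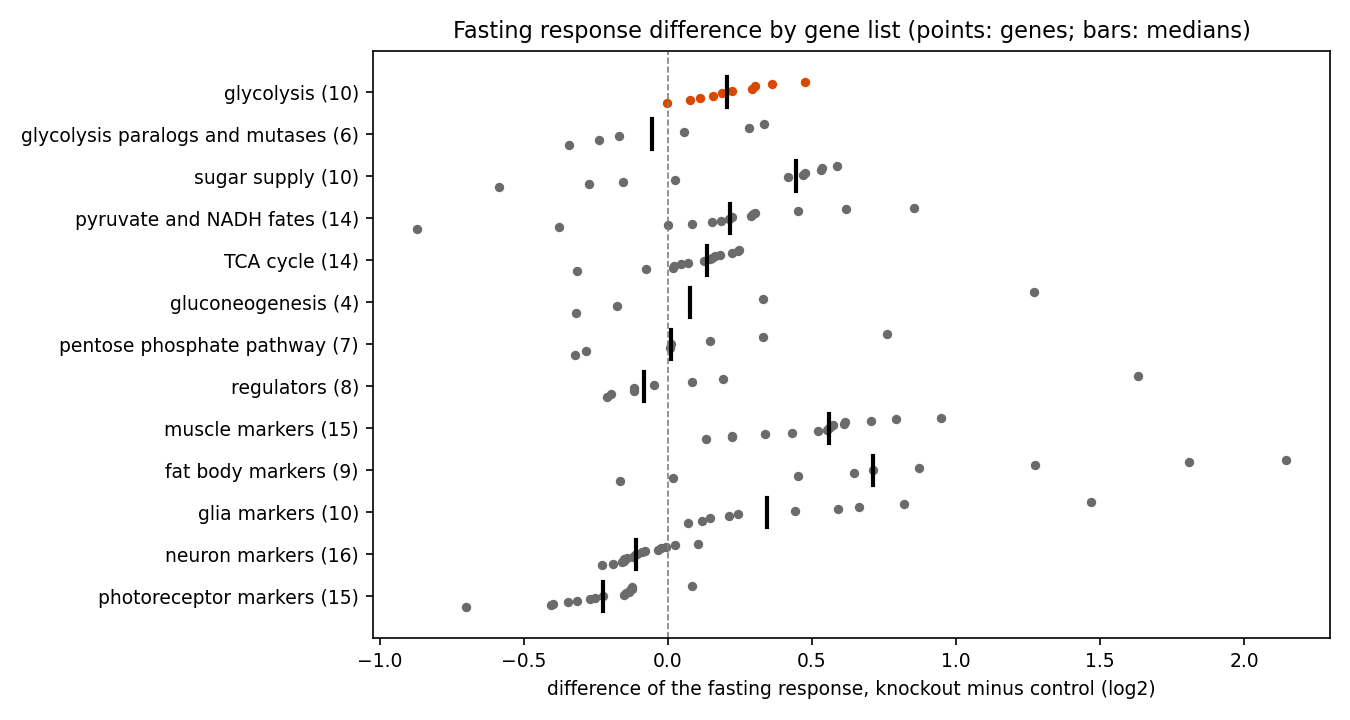
Difference of the fasting response, knockout minus control on the log2 scale, for each tested gene (points) of the glycolysis, metabolic and marker lists, with list medians as bars. The glycolysis median is 0.20, and those of the muscle, fat body and glia marker lists are 0.56, 0.71 and 0.34.

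Marker lists of muscle, fat body and glia had median differences of the fasting response above 0, and those of neurons and photoreceptors below 0. For all 8474 genes tested for that difference, 48.2% lay above 0 and 0.802% were called. Of 15 muscle markers tested, 15 had a difference above 0, with a median of 0.56 and 1 called. Their summed level was 20321 normalized counts in control fed heads, 13161 in control fasted heads, 22815 in knockout fed heads and 22546 in knockout fasted heads. Of 17 muscle markers, 13 were called higher in fasted knockout than in fasted control heads, where the authors' deposited table gives the 17 a median log2 fold of 0.71. That comparison called Gapdh1, and 5.39% of 9917 genes in either direction. There 6 of 10 fat body markers were also higher, with a median of 1.03, and of 15 photoreceptor markers 4 were higher and 1 lower, with a median of 0.20. The glia and neuron medians were 0.020 and -0.097 in that comparison. For fat body markers the median difference was 0.71, with 8 of 9 above 0 and 3 called, and for glia markers 0.34, with 10 of 10 above 0 and 1 called. In the same order of groups the summed level of fat body markers was 13838, 6681, 14083 and 12000 normalized counts, and that of glia markers 8341, 6601, 6631 and 7402. Most of the fat body sum came from apolpp alone, with 10837, 4002, 9900 and 7364 normalized counts. Neuron markers had a median of -0.11, with 2 of 16 above 0, and photoreceptor markers -0.22, with 1 of 15 above 0. In control fed heads 1 of 11 fat body markers, Fbp1, was under 3 normalized counts, and so was 1 of 16 photoreceptor markers, ninaA, which the authors' deposited tables list at a base mean of 0. The part of these tissues in the enzyme values was not tested.

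The same lists stand beside the Ldh values as follows, with medians of log2 folds from the authors' deposited tables. Markers counted as higher or lower were called. Of all tested genes, 3.84% were called in control fasting, 3.26% in knockout fasting and 4.75% in fed knockout against control. In control fasting, where Ldh rose, the fat body median was -0.59, with 1 of 10 markers higher and 5 lower, the muscle median -0.51, with 6 of 16 lower, and the glia median -0.40, with 2 of 10 lower. The neuron and photoreceptor medians were -0.20 and 0.18. In knockout fasting, where Ldh also rose, the muscle and glia medians were 0.00079 and 0.0089, that of fat body markers 0.32, with 2 of 9 higher and 3 lower, and those of neuron and photoreceptor markers -0.30 and -0.055. In fed knockout against fed control heads 3 of 10 glia markers were lower, with a median of -0.27, and 2 of 10 fat body markers were higher and 2 lower, with a median of -0.21. There 5 of 15 photoreceptor markers were higher, with a median of 0.41, and 3 of 17 muscle markers, with a median of 0.19, while the neuron median was 0.029. The part of these lists in the Ldh values was not tested.

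Paralogs of the glycolytic enzymes and the phosphoglycerate mutases formed a list of 15. Of these, 7 were tested in control fasting and 2 were called as rising, against 3.84% of 9361 genes called. CG7059, annotated as a phosphoglycerate mutase, had group means of 60.3 normalized counts in control fed heads, 260 in control fasted heads, 55.8 in knockout fed heads and 200 in knockout fasted heads. Its log2 fold in the authors' deposited tables was 1.78 ± 0.21 in control heads (DESeq2 adjusted p = 1.51e-15) and 1.54 ± 0.23 in knockout heads (adjusted p = 5.26e-09). Hex-C, a second hexokinase, rose from 207 to 400 in control heads, where the authors' deposited table gives a log2 fold of 0.82 ± 0.19 (adjusted p = 0.000872), and had means of 168 and 314 in knockout heads. Per kilobase, the level of Hex-A was 2.79 times that of Hex-C in control fed heads and 1.76 times in control fasted heads.

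Gapdh2, named after its values were seen because it is the paralog of Gapdh1, had a log2 fold of -0.39 ± 0.15 in the authors' deposited table of fasting in control heads (adjusted p = 0.155). The ratio of Gapdh1 to Gapdh2 per kilobase was 0.879 in control fed heads, 1.15 in control fasted heads, 0.968 in knockout fed heads and 1.46 in knockout fasted heads. The ratio was above 1 in both fasted groups and below 1 in both fed groups, and was not tested.

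**Figure D4:**
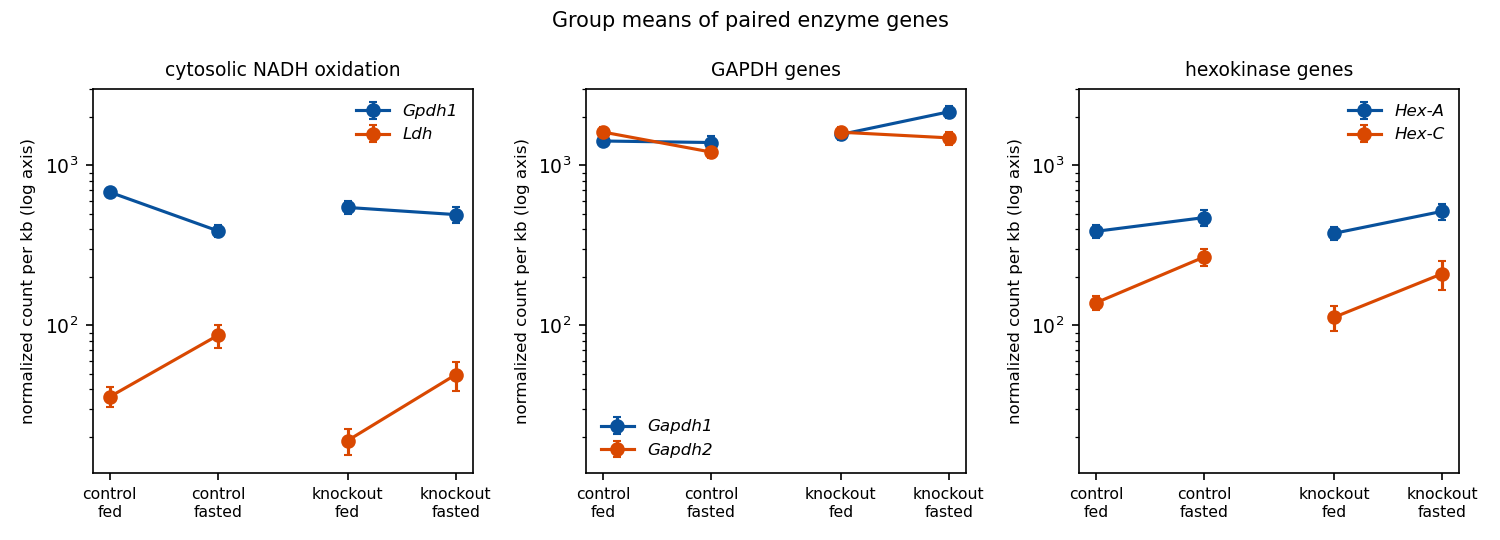
Group means of paired enzyme genes as normalized counts per kilobase on a log axis, with bars of 1 fitted standard error (n = 3 fed, n = 2 fasted). The ratio of Gpdh1 to Ldh was 19.0 in fed and 4.49 in fasted control heads, and 28.6 in fed and 10.0 in fasted knockout heads.

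Genes that use pyruvate and NADH moved in both directions. Of 15 tested in control fasting, 4 were called as rising and 1 as falling, against 3.84% of 9361 genes called. Gpdh1, the glycerol-3-phosphate dehydrogenase that competes with Ldh for NADH, fell by 0.75 on the log2 scale with a standard error of 0.14 in the authors' deposited table (DESeq2 adjusted p = 1.45e-05), from 2143 to 1228 normalized counts. In knockout heads its means were 1720 and 1552, a log2 fold of -0.13 ± 0.19 in the authors' deposited table. The 4 that rose in control heads were Got2 and Got1, the aspartate aminotransferases, Mdh1, the cytosolic malate dehydrogenase, and Pdk, the kinase that inhibits pyruvate dehydrogenase. In this order, their log2 folds in the authors' deposited table were 0.79 ± 0.18, 0.52 ± 0.15, 0.75 ± 0.18 and 0.49 ± 0.16, the last with an adjusted p of 0.0472.

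In knockout heads 4 of the 15 were called as rising with fasting, against 3.26% of 10037 genes called. Of these 4, 3 had also been called as rising in control heads, and the overlap over all genes is not given here. Mdh1 had a log2 fold of 1.05 ± 0.21, Pdk 0.94 ± 0.18 and Got1 0.73 ± 0.16 in the authors' deposited table. The fourth was Men, the cytosolic malic enzyme that makes pyruvate from malate, with 1.04 ± 0.25 (DESeq2 adjusted p = 0.00128). In fasted heads Men was higher in the knockout, with a log2 fold of 1.67 ± 0.18 (adjusted p = 2.18e-17), and Got2 was lower, with -1.50 ± 0.20 (adjusted p = 1.57e-11), in the authors' deposited table. The means of Men were 1340 normalized counts in control fed heads, 1541 in control fasted heads, 2216 in knockout fed heads and 5353 in knockout fasted heads, and those of Got2 were 1096, 2027, 696 and 652 in the same order. The difference of the fasting response was not called for either gene, with adjusted p of 0.221 and 0.176.

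Gluconeogenesis runs the pathway in reverse. Of its 4 genes tested, 2 were called as rising with fasting in control heads and 2 in knockout heads, against 3.84% and 3.26% of all tested genes called. fbp, fructose-1,6-bisphosphatase, opposes Pfk, and its log2 fold was 1.53 ± 0.19 in control heads (DESeq2 adjusted p = 8.9e-14) and 1.36 ± 0.25 in knockout heads (adjusted p = 3.56e-06) in the authors' deposited tables. Pepck2, a phosphoenolpyruvate carboxykinase, had 2.72 ± 0.26 and 3.99 ± 0.18 in the same authors' deposited tables. It was also higher in the knockout, with log2 folds of 4.11 ± 0.20 in fasted and 2.97 ± 0.25 in fed heads. Pfk itself had log2 folds of fasting of -0.19 ± 0.15 in control heads and -0.078 ± 0.16 in knockout heads and was not called.

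Genes that supply sugar were mostly not called. Of 12 tested, 1 was called as rising in control fasting, against 3.84% of 9361 genes called. It was Treh, the enzyme that splits trehalose into glucose, with a log2 fold of 0.57 ± 0.14 in the authors' deposited table (DESeq2 adjusted p = 0.00246). Against 5.39% of 9917 genes called, 2 of 12 were called higher in fasted knockout than in fasted control heads. These were Glyp, glycogen phosphorylase, at 0.82 ± 0.18 (adjusted p = 0.000388), and Tret1-1, a trehalose transporter, at 0.62 ± 0.19 (adjusted p = 0.0239), both from the authors' deposited table. In fed heads Glys, glycogen synthase, was lower in the knockout, with -0.44 ± 0.14 in the authors' deposited table (adjusted p = 0.0463).

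In the TCA cycle, 2 of 14 genes were called as rising in control fasting, against 3.84% of 9361 genes called. Both encode subunits of succinyl-CoA synthetase: Scsalpha1 with a log2 fold of 0.59 ± 0.15 and ScsbetaA with 0.56 ± 0.14 in the authors' deposited table. ScsbetaA rose in knockout heads too, with 0.58 ± 0.16. Of 7 pentose phosphate genes 1 was called in the 4 comparisons, which each called 3.26% to 5.39% of all tested genes. Pgd, 6-phosphogluconate dehydrogenase, was higher in fasted knockout than in fasted control heads, with 0.86 ± 0.24 in the authors' deposited table (DESeq2 adjusted p = 0.00835). Of 8 regulators, 1 was called in control fasting, 0 in knockout fasting and 1 in each comparison of knockout against control, beside the same shares. The sugar-responsive transcription factor sug fell in control fasting from 168 to 40.9 normalized counts. It was higher in fasted knockout than in fasted control heads, with a log2 fold of 1.17 ± 0.28 in the authors' deposited table. Hph, the prolyl hydroxylase of the hypoxia factor, was higher in fed knockout heads, with 0.62 ± 0.15 in the authors' deposited table (DESeq2 adjusted p = 0.00246).

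The genes whose 4 log2 folds lay nearest to those of Gapdh1 among 4701 genes were Tret1-1, CG9801 and chas, at Euclidean distances of 0.0732, 0.0861 and 0.102 on the log2 scale. Tret1-1 had means of 940, 921, 1008 and 1468 normalized counts in control fed, control fasted, knockout fed and knockout fasted heads. Nearest to Ldh were Gfat2, Cyt-b5-r and Irc, at 0.374, 0.412 and 0.434. These distances are a description, since the 4 comparisons share libraries.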

How the data were processed

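Per the labels' protocols, polyadenylated RNA of fly heads was sequenced from NEBNext Ultra libraries. Tools named in the submitters' processing notes are DESeq2, Cuffdiff, STAR and TopHat2, with the builds dm3 and dm6. Their roles are not given in the sources used here. Of 21 samples, 10 head libraries enter the 4 tables, and 11 samples are not analysed here. The tables' names number the libraries otherwise than the labels, which was taken as a renumbering. Per the file headers, each deposited table holds a base mean (a signal: the normalized count averaged over the libraries compared), a log2 fold, its standard error on the log2 scale, a Wald score and p-values, all made by the authors. Depth per library is unknown, so no counting interval was made.

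The deposited standard errors have a ceiling of 0.285 to 0.359, the form a normal prior gives. Folds without shrinkage were computed with a prior SD of 2 times that ceiling, a choice made after seeing the data. Each group mean then came from 2 tables, which differed by a median of 0.0595% to 0.331% over 4701 genes. On simulated data for control fasting (1500 genes, 200 changed), group means were recovered with median errors of 0.113% and 0.0997%. Calls use an adjusted p under 0.05, either from the authors' DESeq2 run or from 3 normal tests combining tables, which were adjusted by Benjamini-Hochberg over genes averaging at least 10 normalized counts. On simulated data (8474 genes), the difference test recovered 51% of changes of 1 and 99% of changes of 2 on the log2 scale. The reported differences are between shrunken folds, and how unequal shrinkage of the 2 tables affects this recovery was not tested. Group errors use the fitted spread. Genes and lists were chosen with earlier results of these data known. The rule for named genes took all 10 enzymes, up to 4 called genes of each other list per comparison by the size of the fold, and the 3 genes nearest to Gapdh1 and to Ldh. Not all genes it allows are named, marker lists are given by counts, and Gapdh2, Pdk in control fasting, Fbp1 and ninaA were named after their values were seen. Names and positions come from Ensembl release annotation of BDGP6.54, 1-based. Python 3.11.15, pandas 2.3.3 and scipy 1.17.1 were used.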

Additional observations from a re-analysis of the deposited data

Results flagged for a closer look

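For Pepck2 the shrunken log2 fold of fasting in knockout heads exceeded that in control heads by 1.27 ± 0.32 (normal test on the authors' deposited DESeq2 values, Benjamini-Hochberg adjusted p = 0.0110). Its group means were 6.98 normalized counts in control fed heads, 106 in control fasted, 114 in knockout fed and 2382 in knockout fasted heads. The control fold, with the larger standard error (0.26 against 0.18), was shrunken more. Whether a difference remains without shrinkage was not tested. For sug the difference was 1.63 ± 0.32 (adjusted p = 0.000171), with group means of 168 normalized counts in control fed heads, 40.9 in control fasted heads, 111 in knockout fed heads and 112 in knockout fasted heads. The same test called 0 of the 10 glycolysis enzymes, with 1 at an unadjusted p under 0.05.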

How the results depend on the processing

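No paired analysis was possible because the deposited tables hold no values per library, and for the same reason leaving out each replicate was not run. At an adjusted p under 0.01, 0 enzymes were called in knockout fasting and 0 in fasted knockout against control by DESeq2 (3 and 2 at an unadjusted p under 0.05). With the prior SD at the ceiling itself, 4 were called in knockout fasting, 2 in fasted knockout against control, 2 in fed knockout against control, 2 for the mean fasting effect and 3 for the mean knockout effect. That setting let the group means from 2 tables differ by a median of 2.85% to 4.28%. With scores divided by their central spread, 1 was called in fed knockout against control (Ldh) and 1 for the difference (Gapdh1). A t distribution with 6 degrees of freedom left 0 for the mean fasting effect and 0 for the mean knockout effect (1 and 3 at an unadjusted p under 0.05). Equal weights gave 2 for the mean knockout effect (Gapdh1 and Ldh). The shares of all genes called under these altered settings are not given here, so these counts cannot be set against all genes. The Ldh difference turned to 1.98 with the prior SD at the ceiling, 0.040 from the knockout-against-control tables and 0.10 with 2 times the ceiling, and the mean knockout effect of PyK to 0.016 with equal weights. The cause was not tested. Of the other single-enzyme values, 530 kept direction and side of the threshold, 12 passed it newly and 4 lost it. Re-centring the folds on the median of all genes turned no enzyme.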
